A study of Homo sapiens with 12 samples.

Results

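The comparison described here is that of the 3 PANC-1 arrays labelled GLI1 with the 3 PANC-1 arrays labelled control, 6 of the 12 arrays of the series, taken by their labels for cell line and transfection. PANC-1 is an established human pancreatic ductal adenocarcinoma cell line with an epithelial origin and many mesenchymal features. The arrays labelled GLI1 (LIP, LIP-1 and LIP-2) stand for cells given a plasmid that expresses GLI1 with a lipid transfection reagent, and the arrays labelled control (S10, S11 and S8) for cells given the empty plasmid in the same way, with no dose or time stated. The study asked how GLI1, at the end of the Hedgehog pathway, bears on the Hippo/YAP pathway. Whether the 3 arrays of a label came from separate cultures is not stated, so p-values measure the spread between these arrays, which may be technical.

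In the Hedgehog pathway, a secreted ligand such as SHH binds the receptor PTCH1, the signal passes through SMO and SUFU, and GLI transcription factors switch on their targets, of which GLI1 and PTCH1 are textbook members. In pancreatic cancer the ligand comes largely from the tumor cells. In the Hippo pathway, the kinases MST1 and MST2 (genes STK4 and STK3) act through LATS1 and LATS2 to keep the coactivator YAP out of the nucleus. Cells that sense foreign nucleic acid make interferons, which through JAK and STAT proteins raise a large set of antiviral genes.

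All 22411 genes with a single symbol were tested on normalized log2 values. The array medians as deposited lay between 5.86 and 5.93 in PANC-1. Of 9 markers of the line 8 were measured, with a median of 9.09 to 9.5 over the 6 arrays. Among them KRT8 read 10.46 to 11.81 and VIM 11.91 to 12.11. The leukocyte gene PTPRC read 3.40 to 3.50, on a table whose values run between 1.79 and 14.75. The median of the 5 measured leukocyte markers was higher, at 5.99 to 6.28 over the 6 arrays, beside 7.19 to 7.25 for all genes. None of the 22 measured markers of leukocytes, fibroblasts and endothelial, endocrine or acinar cells was called in the 6 arrays, where 0.384% of all genes were called. Without S8, where 19.2% of all genes were called, 1 fibroblast and 1 leukocyte marker rose and 1 leukocyte marker fell. A difference between labels does not show if such cells were present. Control array S8 stood apart. The SD of its difference to S10 and S11 over genes was 0.341 and 0.329, against 0.153 between S10 and S11 and 0.135 to 0.229 among the arrays labelled GLI1. Each main result is therefore given with and without S8.

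GLI1 itself was lower in the arrays labelled GLI1. Its values were 7.76, 8.0 and 8.04 in LIP, LIP-1 and LIP-2, against 11.50, 11.54 and 11.46 in S10, S11 and S8. The groups did not overlap, and all 3 control arrays, S8 included, lay close together. The mean was 7.93 ± 0.15 in the arrays labelled GLI1 and 11.50 ± 0.04 in those labelled control (SD, n = 3 each). This is 11.9-fold lower, or -3.57 as a log2 fold change with a standard error of 0.08 (adjusted p = 0.000136 from limma). Without S8 the log2 fold change was -3.59 (adjusted p = 0.000594 from limma). The two-sided exact permutation test gave p = 0.1, the smallest that 3 arrays against 3 allow. GLI1 thus ran against its label, and every direction below is that of the library labelled GLI1 relative to the library labelled control. A single probe set read GLI1, and no source used here says if it covers the plasmid's copy.

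In the 6 arrays, 86 of the 22411 genes (0.384%) passed an adjusted p of 0.05 (limma, Benjamini-Hochberg over all genes) and are termed called. Of these, 16 rose (0.0714% of all genes) and 70 fell (0.312%), among them 5 and 18 by at least 2-fold. The groups did not overlap in any of the 86, as in 22.5% of all genes. Of the 86, 56 shared an adjusted p of 0.0478, just under the threshold, and 4119 genes had an unadjusted p under 0.05. The count was 2 without LIP, LIP-1 or LIP-2, 5 without S10 and 4 without S11. Without S8 it was 4305 (19.2%), with 2324 rises (10.4%) and 1981 falls (8.84%), and the groups then did not overlap in 47.8% of all genes. All 86 genes were called in the same direction without S8. Only GLI1 and MIR21 were called whichever array was left out. RNA came from whole cultures, so a lower value in every cell and fewer cells that express the gene cannot be told apart.

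Among the genes called in the 6 arrays, the largest falls after GLI1 were in MIR21, DDIT3, TNFAIP3 and CREBRF. IFNL1 (-3.54) and IFIT2 (-3.53) stood lower still but missed the threshold (adjusted p = 0.051 and 0.0552 from limma). MIR21, the gene of the abundant tumor-associated miR-21, stood at 7.55, 7.39 and 7.41 in the arrays labelled GLI1, against 9.59, 9.50 and 9.70 in the control arrays, which gave a log2 fold change of -2.15 with a standard error of 0.08 (adjusted p = 0.000831 from limma). DDIT3, the stress-induced transcription factor CHOP, stood at 8.11, 8.24 and 8.02, against 10.71, 10.19 and 9.64 in the control arrays, at -2.06 (standard error 0.26, adjusted p = 0.0478). S8 was the lowest control array for DDIT3 and the highest for MIR21, and in both it lay clear of the arrays labelled GLI1. TNFAIP3, a ubiquitin-editing enzyme known as A20 that shuts off NF-κB, stood at 8.54, 7.98 and 7.98, against 10.15, 10.54 and 9.70 in the control arrays (log2 fold change -1.96, adjusted p = 0.0478). CREBRF, a regulator of the unfolded protein response factor CREB3, stood at 7.13, 6.99 and 6.94, against 9.25, 8.80 and 8.63 in the control arrays (-1.87, adjusted p = 0.0306). PMAIP1, the pro-apoptotic protein NOXA, stood at 9.50, 9.43 and 9.36, against 10.88, 10.62 and 10.69 in the control arrays (-1.30, adjusted p = 0.013). In all 3 the control arrays lay more than 1 log2 unit above the arrays labelled GLI1.

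**Figure D1:**
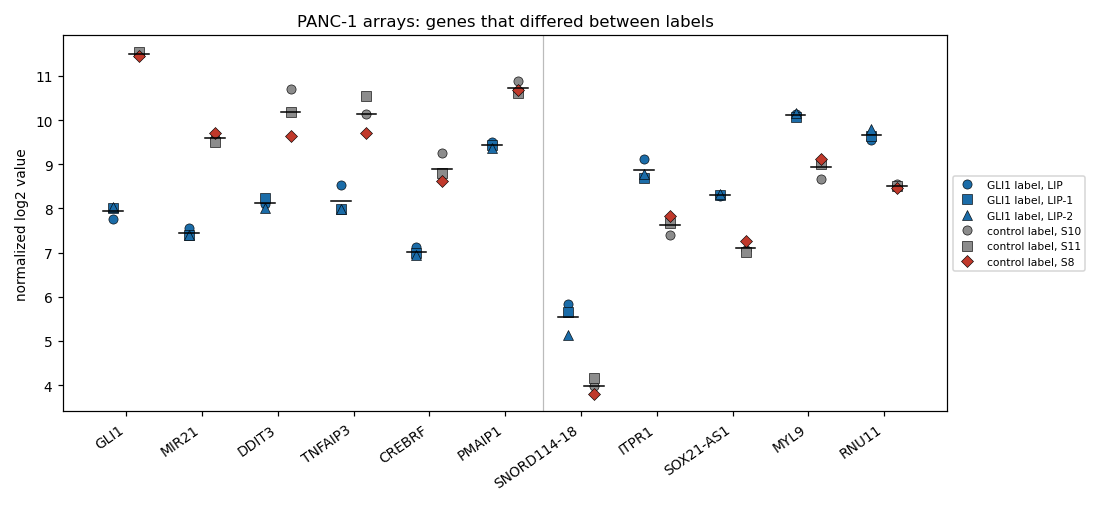
Normalized log2 values of 11 genes in each PANC-1 array, with the GLI1 label (blue) left of the control label (grey, S8 in red) for each gene and bars at the group means. The groups do not overlap for the 6 genes that fell on the left or the 5 that rose on the right, and S8 lies with the other control arrays in each.

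The mature miR-21-5p is shown because MIR21 was, beside GLI1, the gene called whichever array was left out, and miR-221-3p and miR-222-3p because their clustered genes also stood lower in the arrays labelled GLI1. Capitals mark the seed, bases 2 to 8, with which a miRNA pairs to its targets. Sequences are from RefSeq on GRCh38.p14, and 938 of the 1050 tested MIR genes had one.
hsa-miR-21-5p (chr17:59841273-59841294, plus strand): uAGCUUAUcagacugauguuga
hsa-miR-221-3p (chrX:45746180-45746202, minus strand): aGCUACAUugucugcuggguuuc
hsa-miR-222-3p (chrX:45747036-45747056, minus strand): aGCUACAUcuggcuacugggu
The last pair share their seed. MIR222 stood at 5.40, 5.59 and 5.26 in the arrays labelled GLI1, against 8.83, 7.23 and 7.08 in the control arrays, with a log2 fold change of -2.29 (adjusted p = 0.0858 from limma) in the 6 arrays and -2.61 (adjusted p = 0.012) without S8. MIR221, chosen after its values were seen, stood at 6.96, 6.70 and 6.63, against 9.28, 7.83 and 7.61 in the control arrays (-1.48, adjusted p = 0.151, and -1.79, adjusted p = 0.0285, without S8). The arrays read the transcripts of these loci with labelled total RNA, so the values are not levels of the mature miRNAs. Over the 1050 MIR genes 1 was called lower and none higher in the 6 arrays, and 38 lower and 21 higher without S8. The lower calls are 0.0952% and 3.62% of MIR genes, beside 0.312% and 8.84% of all genes, so MIR genes were not called lower more often than the background.

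The others of the 15 largest falls were in NOCT, a circadian protein related to deadenylases (-1.45), ZNF461 (-1.35), ZNF550 (-1.30), ZBTB10 (-1.20), the small GTPase RIT1 (-1.19), SLFN12 of the Schlafen family (-1.17), DUSP16, a phosphatase of the kinases JNK and p38 (-1.16), IRAK2, a kinase of interleukin 1 and Toll-like receptor signaling (-1.12), and MB21D2 (-1.08). Their adjusted p-values from limma in the 6 arrays ran between 0.013 and 0.0478. Of 533 tested genes with a ZNF symbol, most of them transcription factors with zinc fingers, 11 fell (2.06%, beside 0.312% of all genes) and none rose, and 8 of the 11 lie on chromosome 19. ZNF461 stood at 6.88, 7.20 and 7.05 in the arrays labelled GLI1, against 8.56, 8.34 and 8.29 in the control arrays. Without S8, 170 ZNF genes fell (31.9%, beside 8.84% of all genes) and 16 rose. The ZNF group was picked after its values were seen. Its genes share sequence.

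Further genes among the 70 falls were picked after their values were seen, with no list or test behind the choice. GABARAPL1, which sits on the membrane of the autophagosome, stood at 7.34, 7.61 and 7.62 in the arrays labelled GLI1, against 8.72, 8.61 and 8.45 in the control arrays (log2 fold change -1.07). ATG2B, a lipid transfer protein of that membrane, was at -0.88 and the cargo receptor SQSTM1 at -0.61. The remaining falls by at least 2-fold were HBP1, a repressor of the cell cycle, at -1.07, and DCP1A, a factor of mRNA decapping, at -1.06. CYLD, a deubiquitinase that restrains NF-κB, was at -0.90, the histone demethylase KDM6A at -0.76, CCNT2, a cyclin of the elongation kinase, at -0.69, and NUAK2 and PRKAA2, kinases of the AMPK family, at -0.76 and -0.62. Their adjusted p-values were at most 0.0478, and each lay lower in all 3 arrays labelled GLI1 than in any control array.

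The rises in the 6 arrays were fewer and smaller. SNORD114-18, a small nucleolar RNA of the imprinted cluster on chromosome 14, stood at 5.84, 5.65 and 5.14 in the arrays labelled GLI1, against 3.98, 4.16 and 3.79 in the control arrays, which gave a log2 fold change of 1.57 with a standard error of 0.19 (adjusted p = 0.0478 from limma). ITPR1, a calcium channel of the endoplasmic reticulum, stood at 9.13, 8.68 and 8.77, against 7.39, 7.66 and 7.82 in the control arrays (1.24, adjusted p = 0.0478). The antisense RNA SOX21-AS1 stood at 8.28, 8.30 and 8.33, against 7.05, 7.01 and 7.26 in the control arrays (1.20, adjusted p = 0.013). In each of them S8 lay with S10 and S11. MYL9, a regulatory light chain of myosin, rose by 1.18 and RNU11, the small nuclear RNA U11 of the minor spliceosome, by 1.14. The remaining 10 of the 15 largest rises were the carboxypeptidase CPA4 (0.88), the small nucleolar RNAs SNORD14E (0.78) and SNORD12C (0.75), RTL8B (0.59), LNPK, a shaper of the endoplasmic reticulum (0.59), the Notch target HEY1 (0.50), RNY3P2 (0.46), EME1, a subunit of a DNA repair nuclease (0.45), CDKN2AIPNL (0.43) and the TGF-β receptor TGFBR1 (0.40). HEY1 read 6.31, 6.22 and 6.35 in the arrays labelled GLI1, against 5.83, 5.75 and 5.82 in the control arrays.

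Interferon genes were the group in which the control arrays differed most among themselves. None of 35 measured interferon-stimulated genes was called in the 6 arrays, at a median log2 fold change of -1.11 beside 0.00 over all genes, and 8 of them fell and none rose without S8, at a median of -0.26, beside 8.84% and 10.4% of all genes. As 0.384% of all genes were called in the 6 arrays, 0 calls in a list of this size are near the background. Their median level was 6.07, 6.40 and 6.55 in LIP, LIP-1 and LIP-2, against 7.07, 6.35 and 9.30 in S10, S11 and S8. S8 was the highest of the 6 arrays for all 35. Over all genes, S8 lay at least 2-fold above each of the 5 other arrays for 67 genes, of which 29 are on this list, and at least 2-fold below them for 0 genes. Without S8 the count that fell was 4, 6, 4 and 11 when LIP-1, LIP-2, S10 or S11 was also left out, and 9 fell and 3 rose without LIP.

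Not every gene of the list was sorted into a pattern. Those named below, with the ligand gene IFNL1 from outside the list, showed a pair of patterns. In the first, the genes were raised in S10 and S11 as well as in S8. IFNL1, an interferon lambda, stood at 7.09, 7.13 and 7.53 in the arrays labelled GLI1, against 10.37, 10.09 and 11.90 in S10, S11 and S8 (log2 fold change -3.54, adjusted p = 0.051 from limma, and -2.98, adjusted p = 0.00172, without S8). IFIT2, which binds viral RNA, stood at 5.65, 6.31 and 6.67, against 9.62, 8.86 and 10.75 in the control arrays (-3.53, adjusted p = 0.0552, and -3.03, adjusted p = 0.00499, without S8). HERC5, the ligase that attaches ISG15 to proteins, stood at 4.93, 5.03 and 5.12, against 7.78, 6.70 and 9.33 in the control arrays (-2.90, adjusted p = 0.0912, and -2.21, adjusted p = 0.00683, without S8). In all 3 the lowest control array lay more than 1 log2 unit above the highest array labelled GLI1, and S8 was the highest. IFIT3 (-2.02), IFI6 (-1.89), IFIT1 (-1.73) and OASL (-1.70) fell likewise without S8, and so did RSAD2 and TRIM21. IFI6 and IFIT1 were chosen after their values were seen.

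In the second pattern, S8 stood far above S10 and S11, which lay near the arrays labelled GLI1. OAS2, an enzyme that answers to double-stranded RNA, stood at 5.12, 5.22 and 5.40 in the arrays labelled GLI1, against 6.25, 5.49 and 10.62 in S10, S11 and S8, with a log2 fold change of -2.21 (adjusted p = 0.425 from limma) in the 6 arrays and -0.62 (adjusted p = 0.11) without S8. IFI44L stood at 3.37, 3.50 and 3.60, against 3.83, 3.54 and 7.47 in the control arrays (-1.46 and -0.20). IFI27 stood at 6.01, 6.40 and 6.44, against 6.73, 6.34 and 10.01 in the control arrays (-1.41 and -0.26). For SAMD9L the sign turned, with 4.48, 5.09 and 5.17 in the arrays labelled GLI1, against 4.64, 4.58 and 8.13 in the control arrays (-0.87 and 0.30). None of these 4 passed the test with or without S8. Of the 29 list genes at least 2-fold higher in S8 than in all other arrays, 21 were not called without S8, beside 18106 of all 22411 genes. Most genes were thus not called, on this list or off it.

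**Figure D2:**
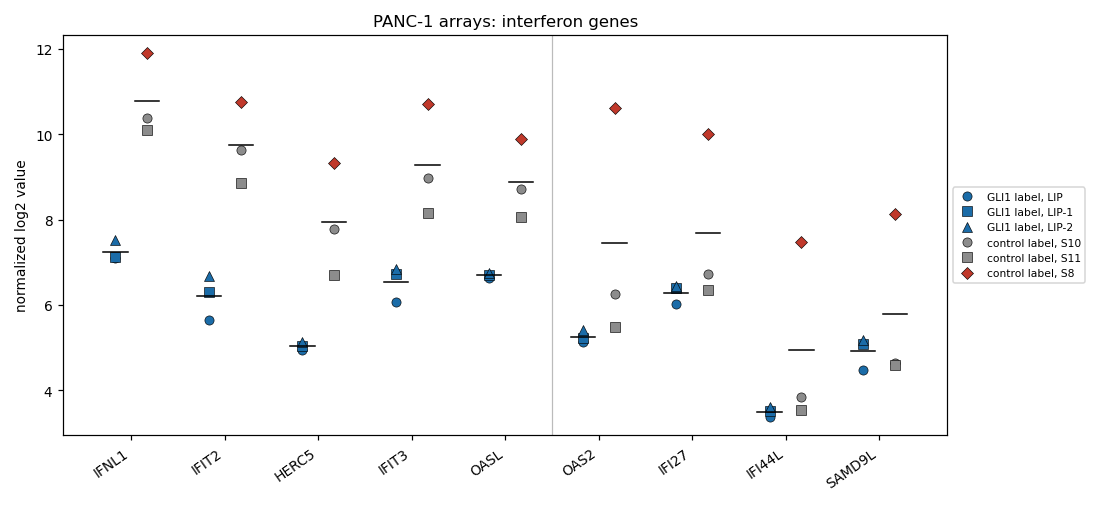
Normalized log2 values of 9 interferon genes in each PANC-1 array, with the GLI1 label (blue) left of the control label (grey, S8 in red) and bars at the group means. The 5 genes on the left are higher in all 3 control arrays than in the arrays labelled GLI1, and the 4 on the right are more than 3 log2 units higher in S8 than in S10 while S10 and S11 lie within 1 log2 unit of the highest array labelled GLI1.

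A minority of the ligands and sensors above these genes fell without S8, where 8.84% of all genes fell and 10.4% rose. Of 10 measured interferon ligands, IFNL1, IFNL2, IFNL3 and IFNE fell without S8 and 6 were not called. None was called in the 6 arrays, where 0.384% of all genes were. IFNE stood at 4.19, 4.10 and 3.67 in the arrays labelled GLI1, against 5.08, 6.23 and 4.67 in the control arrays, with S8 as its lowest control array. IFNL2 stood at 6.98, 7.08 and 7.14 in the arrays labelled GLI1, against 8.98, 8.59 and 11.72 in the control arrays. IFNL3 had the same order of arrays, at a log2 fold change of -1.57 without S8 beside -1.72 for IFNL2. These genes are near-identical copies, and their probe sets may read each other. Of 15 sensors of RNA and DNA in the cytosol, 5 fell, 1 rose and 9 were not called without S8, beside the same shares of all genes. IFIH1, which senses long double-stranded RNA, was at -1.49 and RIGI, the sensor of RNA ends, at -0.88 without S8 (adjusted p = 0.00541 and 0.015 from limma). RIGI was chosen after its values were seen. OASL stands in this list and in that of the stimulated genes. The sensor falls were 3, 3 and 2 when LIP-1, LIP-2 or S10 was also left out. The chemokine CCL5 stood at 7.60, 7.0 and 7.31, against 8.84, 8.93 and 10.68 in the control arrays (-2.18, adjusted p = 0.104, and -1.58, adjusted p = 0.00444, without S8). Of 23 measured feedback and cytokine genes of NF-κB, TNFAIP3 was the sole call in the 6 arrays. Without S8, TNFAIP3, CCL5, RELB and NFKBIE fell and none rose, beside 8.84% and 10.4% of all genes. The falls were also 4 when LIP-1 or LIP-2 was left out too. When LIP was left out instead, 8 fell and 1 rose, but 2656 of all genes then fell and 3372 rose.

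The promoters of IFNL1 and IFI44L are shown as examples of the patterns with all control arrays raised and with S8 far above the others. That of TNFAIP3 is shown because it was the NF-κB gene called in the 6 arrays. Each runs from 250 bases before to 50 after a RefSeq start, on GRCh38.p14 and the plus strand. For IFNL1 and IFI44L this is the first base of the gene. For TNFAIP3 it is a start downstream of the gene's first base, which lies at 137866349. Capitals mark the letters GAAANNGAA (like the interferon-stimulated response element) in the first pair and GGNNTTTCC (like the NF-κB site) in TNFAIP3, on either strand.
IFNL1 (chr19:39296157-39296456): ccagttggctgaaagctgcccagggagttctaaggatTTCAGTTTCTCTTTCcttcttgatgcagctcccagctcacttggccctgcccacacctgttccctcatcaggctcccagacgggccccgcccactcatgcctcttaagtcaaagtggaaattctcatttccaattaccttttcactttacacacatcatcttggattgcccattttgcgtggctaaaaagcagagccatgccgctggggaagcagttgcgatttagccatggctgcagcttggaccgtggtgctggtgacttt
IFI44L (chr1:78620198-78620497): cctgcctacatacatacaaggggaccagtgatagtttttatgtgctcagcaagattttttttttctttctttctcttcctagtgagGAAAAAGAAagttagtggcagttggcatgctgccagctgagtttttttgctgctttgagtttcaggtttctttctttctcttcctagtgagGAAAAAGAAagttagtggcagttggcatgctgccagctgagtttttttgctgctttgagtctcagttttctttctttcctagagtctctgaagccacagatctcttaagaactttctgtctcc
TNFAIP3 (chr6:137867009-137867308): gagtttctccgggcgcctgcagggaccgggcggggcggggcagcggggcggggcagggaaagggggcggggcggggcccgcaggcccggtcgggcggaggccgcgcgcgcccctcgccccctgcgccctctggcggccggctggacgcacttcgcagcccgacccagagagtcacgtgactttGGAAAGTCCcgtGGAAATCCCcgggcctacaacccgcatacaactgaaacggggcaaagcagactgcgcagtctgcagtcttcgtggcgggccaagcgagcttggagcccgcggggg
Promoters were found for 15374 of the 22411 genes, 21328 in all. The letters GAAANNGAA stood in 70.7% of the 41 promoters of the interferon-stimulated genes, in 7.23% of the 83 promoters of genes that fell in the 6 arrays and in 7.03% of all promoters. The letters GGNNTTTCC stood in 10 of the 83 promoters of genes that fell (12%), in 2 of the 17 of genes that rose (11.8%) and in 6.53% of all. The GLI letters GACCACCCA stood in 1 of the 83 promoters of genes that fell, 1.2%, and in 0.216% of all. The letters TTTGGCGC or TTTCCCGC (like E2F sites, where TTTCCCGC shares the run TTTCC with the NF-κB letters) stood in 48.5% of the 33 promoters of S-phase genes and in 2.69% of all. A match is a run of letters and not a measured site.

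S8 differed from S10 and S11 in more than the interferon genes. Of the 4305 genes called without S8, S8 lay nearer to the mean of the arrays labelled GLI1 than to the mean of S10 and S11 in 3216 (74.7%), with a median position 22.9% of the way between them. This held for 79.1% of the rises and 69.5% of the falls. The genes were called on S10 and S11, so the position of S8 is a description. By Pearson correlation over genes, S8 was at 0.9894 to 0.9922 with the arrays labelled GLI1 and at 0.9866 and 0.9875 with S10 and S11. The largest rises without S8 show this. PADI2, a peptidylarginine deiminase, stood at 10.90, 11.49 and 11.64 in the arrays labelled GLI1, against 9.31 and 9.11 in S10 and S11 and 11.99 in S8. LXN, an inhibitor of carboxypeptidases, stood at 9.76, 10.52 and 10.55, against 7.50, 8.37 and 10.33 in the control arrays. ARRB1, the signaling adaptor β-arrestin, stood at 10.50, 10.69 and 10.90, against 8.45, 9.04 and 11.07 in the control arrays. In all 3 the arrays labelled GLI1 and S8 were high and S10 and S11 low.

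**Figure D3:**
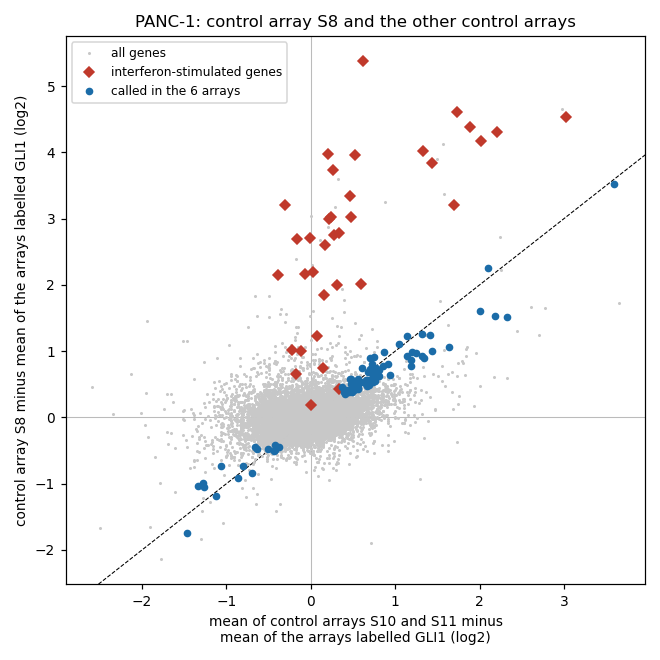
Each point is a gene, with the mean of S10 and S11 minus the mean of the arrays labelled GLI1 on the x axis and S8 minus the same mean on the y axis, both log2. The 86 genes called in the 6 arrays (blue) lie near the dashed line of equality, the 35 interferon-stimulated genes (red) above it, and other genes far from 0 on the x axis often lie near 0 on the y axis.

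Without S8 the log2 fold changes of those genes were 2.13 for PADI2, 2.34 for LXN and 1.95 for ARRB1 (adjusted p = 0.00424, 0.0081 and 0.00395 from limma), against 1.21, 1.54 and 1.18 with S8, where none passed. The other rises of the 10 largest were the neuronal membrane protein SLITRK6 (2.59), the protocadherin PCDH18 (2.01), the lymphocyte activation marker CD69 (1.96), the glucose transporter SLC2A12 (1.94), the matrix protein MXRA5 (1.93), the phosphodiesterase PDE7B (1.85) and SNORD114-11 (1.79). PDE7B and SNORD114-11 were the ones among them whose groups did not overlap with S8 included. On the side of the falls, IRS2, an adaptor of the insulin receptor, stood at 7.67, 7.36 and 7.14 in the arrays labelled GLI1, against 9.99 and 9.46 in S10 and S11 and 7.98 in S8 (-2.33 without S8, adjusted p = 0.00343). HIF1A-AS2, antisense to HIF1A, stood at 7.24, 6.49 and 6.19, against 10.39, 10.20 and 8.36 in the control arrays (-3.65, adjusted p = 0.00303, and -3.01, adjusted p = 0.0791, with S8). GADD45A, a stress gene that slows the cell cycle, stood at 8.92, 8.57 and 8.33, against 11.50, 11.27 and 10.26 in the control arrays (-2.78, adjusted p = 0.00241, and -2.40, adjusted p = 0.0544, with S8). S8 lay between the labels in these falls. SNAPC1, a factor of small nuclear RNA transcription, fell by 2.44 on the log2 scale without S8. The count of 4305 was 1781, 2484, 758 and 2078 when LIP-1, LIP-2, S10 or S11 was also left out, and 6028 without LIP.

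Genes of the integrated stress response, in which ATF4 and CHOP adjust gene expression when protein synthesis is slowed, went both ways. Of 23 measured, DDIT3 and CEBPG fell in the 6 arrays and none rose, at a median log2 fold change of -0.39. Without S8, 10 fell and 4 rose, beside 8.84% and 10.4% of all genes, at a median of -0.19. PPP1R15A, the phosphatase subunit that ends the response, stood at 8.56, 8.60 and 8.51 in the arrays labelled GLI1, against 10.56, 10.15 and 9.37 in the control arrays (-1.80 without S8, adjusted p = 0.00288). ATF3 fell by 1.53, ATF4 by 0.72, CEBPG by 0.65 and TRIB3 by 0.58 on the log2 scale without S8, whereas PSAT1, an enzyme of serine synthesis, rose by 0.94. PPP1R15A, ATF4 and PSAT1 were chosen after their values were seen. The falls were 5, 6 and 4 when LIP-1, LIP-2 or S10 was also left out. In the unfolded protein response of the endoplasmic reticulum, XBP1, one of its main transcription factors, stood at 8.98, 8.93 and 8.92, against 9.76, 9.52 and 9.63 in the control arrays (-0.70, adjusted p = 0.042 from limma), the sole call among 19 genes in the 6 arrays. ERN1, the sensor that splices XBP1, was at -0.99 and the chaperone CALR, chosen after its values were seen, at 0.75 without S8, where 3 of the 19 fell and 6 rose, beside the same shares of all genes. The rises were 2 without LIP-1, S10 or S11 and 3 without LIP-2.

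Part of the genes of DNA replication and division rose without S8. None of 28 S-phase genes was called in the 6 arrays, although all 28 had a positive log2 fold change, at a median of 0.44. Without S8, 18 rose and none fell, beside 10.4% and 8.84% of all genes, at a median of 0.49, and 10 were not called. PCNA, the clamp of DNA polymerases, stood at 10.04, 10.10 and 10.04 in the arrays labelled GLI1, against 8.80, 8.99 and 9.69 in the control arrays (0.90, adjusted p = 0.117 from limma, and 1.17, adjusted p = 0.0024, without S8). E2F1, a transcription factor of S-phase genes, stood at 9.77, 9.94 and 9.96, against 9.0, 9.19 and 9.35 in the control arrays (0.71, adjusted p = 0.0552, and 0.80, adjusted p = 0.00505, without S8). S8 was the highest control array in both and still below the arrays labelled GLI1. PRIM1, the DNA primase, rose by 0.91, MCM6 of the replicative helicase by 0.87 and RRM2 of ribonucleotide reductase by 0.84 without S8. PCNA and MCM6 were chosen after their values were seen. Of 25 genes of mitosis and the G2 phase, 16 rose, none fell and 9 were not called without S8, at a median of 0.37, with the mitotic kinase CDK1 and cyclin A (CCNA2) at 0.62 each and survivin (BIRC5) at 0.45. When LIP-1 or LIP-2 was also left out, the S-phase rises were 6 and 11, and those of G2 and M were 9 and 13. Over all genes the rises then were 903 and 1288. Leaving out S10 or S11 instead left a single control array. The S-phase medians then were 0.35 and 0.62 and those of G2 and M 0.37 and 0.41. Of 26 genes of glycolysis and hypoxia, 13 rose, 1 fell and 12 were not called without S8, beside the same shares of all genes, and none was called in the 6 arrays. The mitophagy receptor BNIP3 was at 1.07, PDK1, which closes pyruvate off from mitochondria, at 0.63, and the aldolase ALDOC, chosen after its values were seen, at 1.66. The rises of this list were 8 and 8 without LIP-1 or LIP-2, and its medians were 0.32 and 0.33 without S10 or S11.

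**Figure D4:**
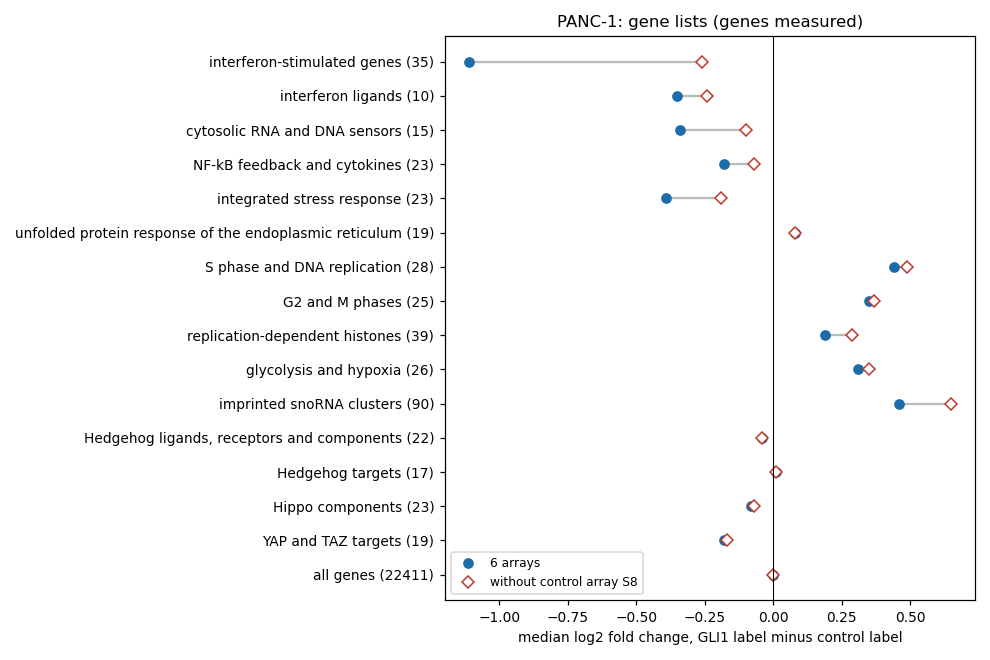
Median log2 fold change (GLI1 label minus control label, x axis) of 15 gene lists and of all genes, with the number of genes measured, in the 6 arrays (blue) and without S8 (red diamonds). The interferon-stimulated genes move most when S8 is left out, at -1.11 with it and -0.26 without, while the medians of S phase, G2 and M phases and Hedgehog and Hippo lists shift by 0.05 or less.

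Small nucleolar RNAs guide the modification of other RNAs, and the imprinted clusters on chromosomes 14 and 15 each make many copies from a single host transcript. Of 90 measured members of these clusters, SNORD114-18 was the one called in the 6 arrays, and 43 rose and none fell without S8 (10.4% of all genes rose). The clusters differed in S8. The 31 SNORD114 copies had a median level of 8.13, 8.44 and 8.53 in the arrays labelled GLI1, against 6.98, 7.78 and 7.76 in the control arrays. The 19 SNORD116 copies had a median of 8.54, 8.86 and 8.99, against 7.68 and 7.55 in S10 and S11 and 9.09 in S8. Thus S8 lay with S11 for SNORD114 and above the arrays labelled GLI1 for SNORD116. Without S8, 23 of the 31 SNORD114 copies rose at a median of 1.0, 18 of the 19 SNORD116 copies at a median of 0.83, 2 of 9 SNORD113 copies at 0.68 and none of 31 SNORD115 copies, whose median levels lay at 2.69 to 2.92. SNORD116-14, chosen after its values were seen, stood at 10.65, 10.73 and 10.77, against 10.03, 9.95 and 10.92 in the control arrays (0.73 without S8, adjusted p = 0.00335 from limma). Copies of a cluster share sequence, so their probe sets are not independent. The count of 43 was 15, 22, 10 and 31 when LIP-1, LIP-2, S10 or S11 was also left out.

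**Figure D5:**
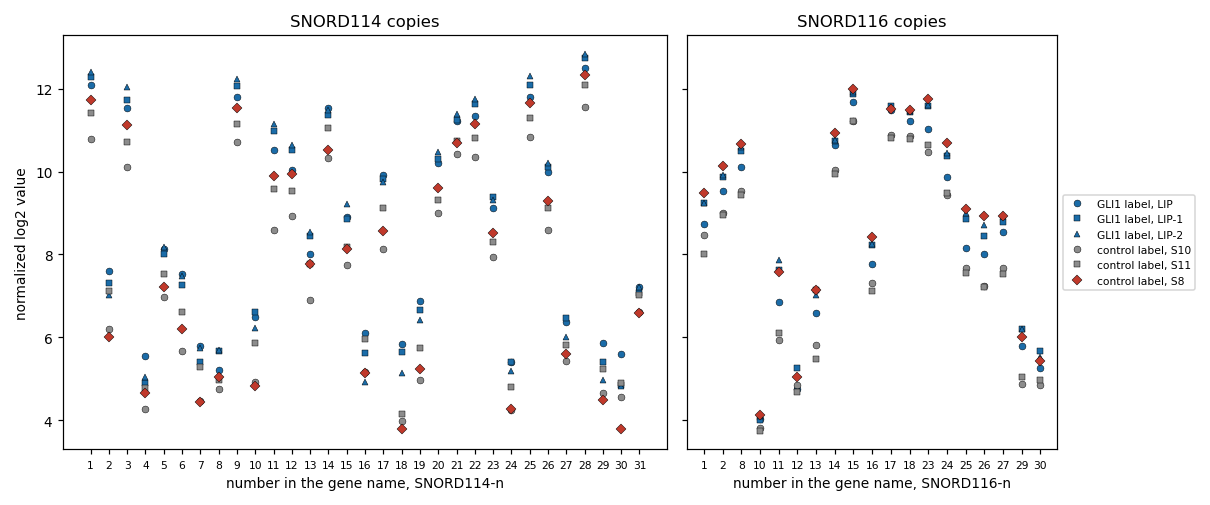
Normalized log2 values of each measured SNORD114 copy (left) and SNORD116 copy (right) in the 6 PANC-1 arrays, ordered by the number in the gene name, with the GLI1 label in blue, S10 and S11 in grey and S8 in red. Most SNORD114 copies have S8 among the control arrays, and most SNORD116 copies have S8 at or near the top.

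Beyond GLI1, the Hedgehog genes gave no call in the 6 arrays, where 0.384% of all genes were called and a list of this size would seldom hold one. None of 17 measured targets and none of 22 ligands, receptors and other components passed the test there, at medians of 0.01 and -0.04, and the sign of the targets' median turned without LIP (-0.06) and without S10 (-0.03). PTCH1, the receptor and direct target, stood at 7.24, 7.21 and 7.16 in the arrays labelled GLI1, against 7.32, 7.38 and 7.41 in the control arrays (-0.16, standard error 0.05, adjusted p = 0.188 from limma). The ligand SHH was at -0.05 and the ligand-binding decoy HHIP at 0.09 (adjusted p = 0.677 and 0.545). SUFU, which holds GLI factors in the cytoplasm, stood at 7.89, 7.80 and 7.98, against 7.38, 7.48 and 7.47 in the control arrays (0.45, adjusted p = 0.0552, and 0.46, adjusted p = 0.0112, without S8). The coreceptor CDON, chosen after its values were seen, was at 0.59 (adjusted p = 0.15) and 0.74 without S8 (adjusted p = 0.0154). Without S8, 3 targets rose and 1 fell, and 3 components rose and 3 fell, beside 10.4% and 8.84% of all genes (19.2% called in all). When S10 was left out too, a single control array remained. The medians then were -0.0 for targets and -0.05 for components, beside 0.01 and -0.04 with S10 kept.

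In the Hippo pathway, whose link to GLI1 the study examined, none of 23 measured components was called in the 6 arrays (0.384% of all genes), and 5 fell and 1 rose without S8 (8.84% and 10.4% of all genes). The genes of MST2 and MST1, STK3 and STK4, were at -0.08 and 0.00 (adjusted p = 0.531 and 0.996 from limma) and YAP1 at -0.04 (adjusted p = 0.734). STK4 stood at 9.31, 9.09 and 9.03 in the arrays labelled GLI1, against 9.15, 9.27 and 9.0 in the control arrays, so the groups overlapped. LATS1 stood at 8.92, 8.84 and 8.81, against 9.51 and 9.48 in S10 and S11 and 8.84 in S8 (-0.42, adjusted p = 0.295, and -0.64, adjusted p = 0.0037, without S8), so its call rests on leaving out S8. LATS2 was at -0.69 and NF2, the upstream scaffold merlin chosen after its values were seen, at -0.72 without S8. Among 19 YAP and TAZ targets, ARHGAP29, a regulator of the GTPase RhoA, stood at 10.27, 10.27 and 10.21, against 11.11, 10.78 and 10.97 in the control arrays (-0.71, adjusted p = 0.0478), the sole call in the 6 arrays. Without S8, 7 targets fell and 1 rose, beside the same shares. ANKRD1, a textbook YAP target, stood at 9.76, 9.20 and 8.92, against 12.05, 11.95 and 10.54 in the control arrays (-2.71 without S8, adjusted p = 0.0033, and -2.22, adjusted p = 0.0856, with S8). AJUBA was at -0.86 without S8. LATS2, AMOTL2, TEAD1 and PTPN14 stand in both lists. The falls of components were 3, 2 and 4 without LIP-1, S10 or S11 and those of targets 5 to 9 over all 5 arrays left out.

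Immediate early genes, which answer within minutes to growth factors and stress, split into those that rose and those that fell without S8, 6 and 8 of 23 beside 10.4% and 8.84% of all genes, and none was called in the 6 arrays. FOS stood at 9.63, 10.06 and 10.22 in the arrays labelled GLI1, against 8.58, 8.71 and 9.66 in the control arrays (1.32 without S8, adjusted p = 0.00653 from limma). EGR1 rose by 1.04. FOSL1, a partner of JUN proteins like FOS, stood at 10.04, 9.55 and 9.41, against 10.90, 10.74 and 9.44 in the control arrays (-1.15 without S8, adjusted p = 0.0111), and the phosphatase DUSP5 was at -1.32. These 4 were chosen after their values were seen. The rises were 3, 2, 1 and 2 and the falls 4, 6, 3 and 4 when LIP-1, LIP-2, S10 or S11 was also left out. ID3, an inhibitor of helix-loop-helix factors, stood at 9.66, 9.57 and 9.85, against 6.56, 9.02 and 8.03 in the control arrays (1.82, adjusted p = 0.175), and ID2 at 8.47, 8.46 and 8.52, against 6.50, 7.87 and 6.64 (1.48, adjusted p = 0.112). Both were higher in all 3 arrays labelled GLI1, and the spread among the control arrays was wider than among the arrays labelled GLI1. The groups did not overlap in 22.5% of all genes. Neither gene passed without S8 (adjusted p = 0.103 for ID3 and 0.0603 for ID2 from limma). Of the 17 measured genes of their list, none was called in the 6 arrays, and 3 rose and none fell without S8. The largest log2 fold change in this list, above those of ID3 and ID2, was 2.22 in the 6 arrays and 2.5 without S8. The largest over all genes in the 6 arrays was also 2.22.

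The label effect in PANC-1 was set against that in SW1990, the other line, by the interaction test over all 12 arrays. It differed for 536 genes (2.39%), 332 with a more positive effect in PANC-1 and 204 with a more negative one, and on the values as deposited for 228 and 235. Of the 86 genes called in the 6 arrays, 18 differed between the lines, 59 were called in the same direction in SW1990 and 0 in the opposite direction, where 18.9% of all genes were called in either direction. SLFN12 was at -1.17 in PANC-1 and 0.10 in SW1990, a difference of -1.27 (adjusted p = 0.000147 from limma). MYL9 was at 1.18 in PANC-1 and -0.15 in SW1990, a difference of 1.33 (adjusted p = 0.00699). The count of 536 became 3416 without S8 of PANC-1. Leaving out LIP, LIP-1 or LIP-2 gave 355, 230 and 300 genes, and leaving out S10 or S11 gave 265 and 276.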

How the data were processed

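RNA of the 6 PANC-1 arrays was read on expression arrays. The deposited values are log2 signals of 70523 probe sets an array. The authors had corrected and normalized them with tools that no source used here names. The methods speak of mirVana extraction, a Cyanine-3 dye and Agilent slides, but Trizol and biotin stand in the labels and the probe set names are of Affymetrix form. As the medians of the 12 arrays differed by 0.133, above the set limit of 0.1, they were quantile normalized. Symbols were single for 23781 probe sets, several for 1543 and absent for 45199. Where several probe sets read a gene (528 genes), that of highest mean was kept, which left 22411 genes. Dim genes were kept and no detection calls were used.

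Differences (GLI1 label minus control label) were fitted by limma 3.58.1 (lmFit, eBayes; R 4.3.3) on the 6 arrays and without S8, which leave 4 and 3 residual degrees of freedom. P-values were adjusted by Benjamini-Hochberg over all genes and a gene was called under 0.05. The interaction used 4 group means over 12 arrays. P-values without S8 are conditional on leaving out an array because of its values. Replicate numbers pair no arrays. Arrays were simulated with 200 changed genes among 22411 and, for both comparisons, with the spread of the fit without S8. No simulated array thus stood apart as S8 did, and recovery in the real 6 arrays was not measured. On these simulated arrays, the 6-array comparison recovered 88.1%, 98.5% and 100% of genes changed 1.5-, 2- and 4-fold, with 4.98% false calls. Without S8 it recovered 86.6%, 100% and 100%, with 7.28% false calls, above the nominal level. Precision is limited by the number of arrays.

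The members, the 36 gene lists and the rule for named genes were chosen with earlier results of these data known. The rule names GLI1, SHH, HHIP, PTCH1, STK3, STK4, LATS1 and YAP1 of the Hedgehog and Hippo pathways, the 15 largest rises and falls called in the 6 arrays, the 10 largest rises and falls called without S8, up to 4 genes per list of smallest p, and the 10 genes with S8 furthest above and below S10 and S11, skipping clone, LOC, LINC and open reading frame names. GLI1 is in no list. The methods' t-test, named for the whole paper, was run as an alternative. Promoter and miRNA sequences are RefSeq's. Python 3.11.15 made the tables and plots.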

Additional observations from a re-analysis of the deposited data

Results flagged for a closer look

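The results below stand out because the label effect (GLI1 minus control) differed between PANC-1 and SW1990 by the interaction test (limma, adjusted over all 22411 genes). The search for a single outlying value per gene was not applied, as the groups held 3 arrays. GLI1 itself was lower in the arrays labelled GLI1 in both lines, at -3.57 in PANC-1 and -4.92 in SW1990, a difference of 1.35 (adjusted p = 0.00019).

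Among the genes that fell in PANC-1, SLFN12 differed by -1.27, RIT1 by -1.08 (at -1.19 in PANC-1 and -0.11 in SW1990), MB21D2 by -0.96 and DUSP16 by -0.77. HIF1A-AS2 differed by -3.27 (at -3.01 in PANC-1 and 0.26 in SW1990, adjusted p = 0.0224) and SNAPC1 by -1.55, neither of which was called in the 6 arrays of PANC-1. The interferon-induced gene OASL differed by 2.50, at -2.20 in PANC-1 and -4.69 in SW1990 (adjusted p = 0.0232), with 8.72, 8.05 and 9.89 in S10, S11 and S8 of PANC-1. OASL was likewise not called in the 6 arrays of PANC-1 (adjusted p = 0.0845 from limma).

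Among the genes that rose in PANC-1, SNORD114-18 differed by 1.47, MYL9 by 1.33, ITPR1 by 1.31, SOX21-AS1 by 1.19, HEY1 by 0.48 and LNPK by 0.43. Of these 6 genes none was called in SW1990, where their log2 fold changes lay between -0.15 and 0.16.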

How the results depend on the processing

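No paired analysis was possible because the arrays labelled GLI1 and control share no replicate names. In the 6 arrays, the 86 calls became 2160 (984 higher, 1176 lower) with all 12 arrays in the fit, 173 without the dimmest 30% of genes, 27 with limma-trend and robust eBayes, 6909 with array weights (S8 had weight 0.243), 0 by the methods' t-test with Benjamini-Hochberg adjustment and 3293 by the same test at an unadjusted p under 0.05, 2 at an adjusted p under 0.01, 23 with at least a 2-fold difference, and 2 to 4305 with 1 array left out. Values as deposited gave 123, median centring 84, quantile normalization of the 6 arrays alone 102, and other probe set rules 85 and 86. Without S8, the 4305 calls became 6978 with array weights, 53 by the methods' t-test with Benjamini-Hochberg adjustment, 1458 at 0.01, 277 with at least a 2-fold difference, and 758 to 6028 with another array left out. The methods' t-test at an unadjusted p under 0.05 gave 5878. The other alternatives, at an adjusted p under 0.05, gave 4221 to 5443. The interaction gave 536 calls, 267 with median centring and 230 to 3416 with 1 PANC-1 array left out. GLI1 kept its direction throughout, between -3.62 and -3.48, and missed the threshold by the methods' t-test with Benjamini-Hochberg adjustment (-3.57, adjusted p = 0.0555). Of the other values of named genes, SAMD9L turned to 0.22 with array weights and 0.30 without S8, within -1.47 to 0.30 over single arrays left out. STK4, at 0.00, turned to -0.01 as deposited, -0.00 with median centring, -0.12 with array weights, -0.08 without LIP and -0.07 without S8, within -0.08 to 0.07 over single arrays left out. YAP1 without S8 turned to 0.01 without S11. The cause was not tested. Of 1801 such values in the 6 arrays, 1341 kept direction and side of the threshold, 276 lost and 177 gained the call. Of 1684 without S8, these were 1503, 167 and 13. Arrays give no depth, and low signals such as those of SNORD115 limit what can be seen.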
